A study of Rattus norvegicus with 4 samples.

Results

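In Hi-C, stretches of DNA that neighbour each other in the nucleus are ligated and sequenced, and a read pair is taken as 1 contact between the places its ends map to. A contact is called cis when both places are on the same chromosome and trans when they are on different chromosomes. The bins described here are the 1187 stretches of 100 kb with the highest trans share, out of 23724 bins of the numbered chromosomes with enough contacts to be ranked and of 26198 bins in all. The trans share of a bin was its trans contacts divided by the sum of its trans contacts and its cis contacts outside the bin, over the 4 libraries summed. Bins were ranked if their total contacts lay between 0.5 and 2 times the median bin, and the highest 5% were taken, which set a threshold of 30.34%. The trans share of the summed libraries therefore chose the bins, and its level in them is given as a description with no test. The difference between the groups was not used in the choice and was tested. The sum gives more weight to libraries with more contacts, which were those of the Lenti-GFP control. A bin near the threshold can also be chosen through 1 group alone.

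The cells were primary Schwann cells, the glia that wrap the axons of peripheral nerve, taken from rat sciatic nerve. Both groups were grown in 10% FBS with 4 µM forskolin and 5 ng/ml heregulin and infected with lentivirus for 48 h at 2 UFC per cell. Lenti-AS drove overexpression of the antisense RNA of the Egr2 promoter, and Lenti-GFP, the control virus, carried GFP. The study asked whether this RNA changes how the genome folds. Each group held 2 libraries, made with the Arima-HiC kit. Per the methods, the antisense RNA and the control were cloned in vectors with different reporters, so that the RNA and the vector cannot be told apart. The labels call the samples independent and do not say from how many cultures or animals they came, so p-values apply to these libraries only. Contacts carry no marker expression, so the cell type was not checked.

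Each chromosome occupies its own territory in the interphase nucleus, and most contacts of a locus are therefore cis. Loci at the surface of a territory or looped out of it, gene-rich segments that gather around nuclear speckles, and segments that meet at the nucleolus or the lamina are known for contacts with other chromosomes. A map also shows trans contacts where a stretch of sequence lies on another chromosome in the cells, or in the genome, than in the assembly used.

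The libraries held between 70488877 and 110770015 contacts, and 12.626 to 13.001% of them were trans. The median bin of the 1187 had 2893 to 4651 contacts in the denominator of its share in a single library. The 95% Wilson interval of a share in a library was then a median 1.34 to 1.71 percentage points wide on each side, which covers counting error only. The distribution of trans counts over all bins was compared between libraries by chi-square, which leaves out cis contacts and so takes in differences of coverage. No pair of libraries was within counting noise. Chi-square over its degrees of freedom was 1.07 for the Lenti-AS libraries and 1.83 for the Lenti-GFP libraries. Against the Lenti-AS libraries it was 3.43 and 3.57 for Lenti-GFP replicate 1 and 1.83 and 1.97 for Lenti-GFP replicate 2. In trans counts the latter thus differed from Lenti-AS about as much as from its own group.

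The median trans share was 34.1% in the 1187 bins and 18.9% in the 22537 other ranked bins. The highest reached 98.2%. Most bins lay close to the threshold, with 669 of them under 35%, 212 between 35 and 40%, 101 between 40 and 50% and 205 at 50% or more. The 3 bins just inside the threshold were chr20:12700001-12800000 at 30.36%, chr20:17600001-17700000 at 30.35% and chr19:53200001-53300000 at 30.34%. Those just outside were chr14:86700001-86800000 at 30.34%, chr19:54100001-54200000 at 30.34% and chr13:21800001-21900000 at 30.33%. The step at the threshold was thus smaller than the counting error of 1 bin, and the bins there were chosen by their order alone. Of the 1187 bins, 951 (80.1%) were also in the highest 5% of every library taken alone. When the bins were chosen from both libraries numbered 1 and read in both numbered 2, their median share was 34.1%, the lowest was 28.4%, and the other bins had a median of 18.9%.

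A high share came with fewer cis contacts as well as more trans contacts. In contacts over the 4 libraries, the median bin of the 1187 had 5115 in trans, 5062 in cis within 1 Mb outside the bin and 19101 in all. The other bins had medians of 3287 in trans, 8531 in cis within 1 Mb and 23002 in all. Coverage within the bins also differed. All 10 of the 10 kb pieces of a bin held at least 0.25 of the median piece's contacts in 55.2% of the 1187 bins and in 79.0% of the others. Of the 1187 bins 183 had fewer than 8 such pieces. When such bins are left out before ranking, the other 1004 keep the highest shares and must be taken again. That ranking is therefore no check on coverage.

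The bins fell into 2 kinds by where their trans contacts went, and the split was made after the values were seen. In 405 bins (34.1%) the trans contacts were concentrated, which was taken to mean that the 5 fullest partner windows of 1 Mb held at least 10% of them or the fullest partner chromosome held at least 25%. The same held for 3.20% of the other bins. The remaining 782 bins were spread, with a median of 2.24% of their trans contacts in the 5 fullest windows and 8.66% on the fullest chromosome. The other bins had a median of 2.17% and 9.73%, so that the spread bins differed from them little in this respect. In the concentrated bins the medians were 24.8% and 34.9%. Fewer than 8 pieces were well covered, by the level given above, in 30.1% of the concentrated, 7.80% of the spread and 4.30% of the other bins. The concentrated kind made up 12.7% of the bins with a share under 35%, 55.4% of those between 40 and 50%, and 204 of the 205 bins at 50% or more. The largest shares were therefore nearly all those of concentrated bins, although most trans contacts of the median concentrated bin lay outside its 5 fullest windows.

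**Figure D1:**
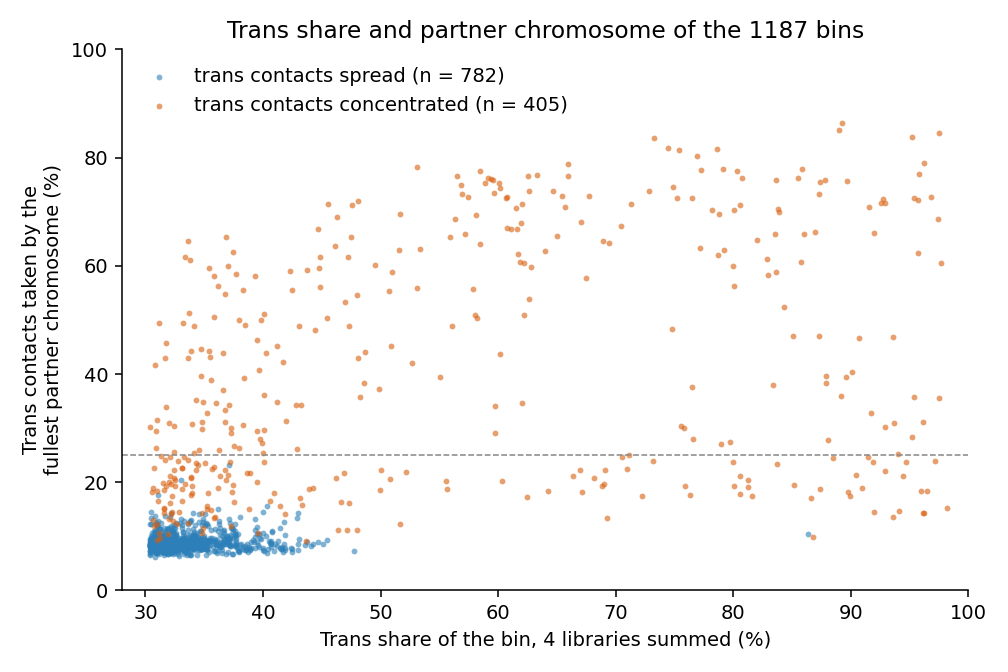
Each point is 1 of the 1187 bins, with its trans share over the 4 libraries (x axis, %) and the part of its trans contacts that went to its fullest partner chromosome (y axis, %), coloured by kind. The dashed line marks 25%. The 782 spread bins lie low and mostly under a share of 50%, and beyond 50% all bins but 1 are concentrated.

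The 10 highest bins, with at most 2 taken from a run of neighbours, had shares from 96.2 to 98.2%. The highest of all, chr8:126900001-127000000, stood at 98.13 and 98.16% with Lenti-GFP and at 98.23 and 98.31% with Lenti-AS. Its fullest partner chromosome was 7, with 15.1% of its trans contacts. Most of its trans contacts thus went to several chromosomes. In chr7:2100001-2200000, at 97.7%, chromosome 1 held 60.6% of the trans contacts. In chr9:117400001-117500000, at 97.5%, chromosome 2 held 84.6%. These bins had most of their contacts, cis included, with 1 other chromosome.

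Among the other bins of the 10, chr16:66300001-66400000 (97.4%) had 68.6% of its trans contacts on chromosome 9, chr11:38700001-38800000 (96.8%) had 72.8% on chromosome 1, and chr19:28400001-28500000 (96.3%) had 79.0% on chromosome 1. The fullest partner chromosome took less in chr19:27200001-27300000 (97.5%), with 35.5% on chromosome 2, and in chr6:30500001-30600000 (97.1%), with 24.0% on chromosome 2. It took 18.3% on chromosome 1 in chr11:39100001-39200000 (96.5%) and 14.3% on chromosome 1 in chr12:3200001-3300000 (96.2%). All 10 were thus of the concentrated kind, some with 1 partner chromosome and some with several. Their well covered 10 kb pieces ranged from 4, as in chr16:66300001-66400000, to 10, as in chr8:126900001-127000000. Bins of the spread kind lay far lower apart from 1. The spread bin with the highest share, chr1:180800001-180900000, had 86.4% with 10.4% of its trans contacts on its fullest partner chromosome, and it was followed by chr20:3100001-3200000 with 47.8% and chr20:500001-600000 with 45.5%.

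In 151 of the 405 concentrated bins, 50% or more of the trans contacts went to a single chromosome, against 1 of the 22537 other bins. They lay in 98 runs on 18 chromosomes and had a median share of 62.5%. The partner was chromosome X for 20 of them. In 92 of the 151, contacts with the partner chromosome outnumbered the cis contacts outside the bin, with medians over all 151 of 6017 and 4699 contacts. The contacts with the partner chromosome were gathered on it to very different degrees. A median of 34.5% lay within 1 Mb of the fullest partner bin, with a 5th percentile of 4.01% and a 95th of 74.7%, and a median of 55.0% within 5 Mb. For comparison, among every 20th other bin (n = 1127) a median of 60.8% of the cis contacts outside the bin lay within 1 Mb of the fullest bin and 76.1% within 5 Mb. In spread bins a median of 4.86% of the contacts with the fullest partner chromosome lay within 1 Mb of the fullest place. The median gathering on the partner chromosome thus lay between that of cis contacts and that of the trans contacts of spread bins. Whether the sequence of these bins lies where the map has it was not tested, since no genome sequence of this build was used.

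**Figure D2:**
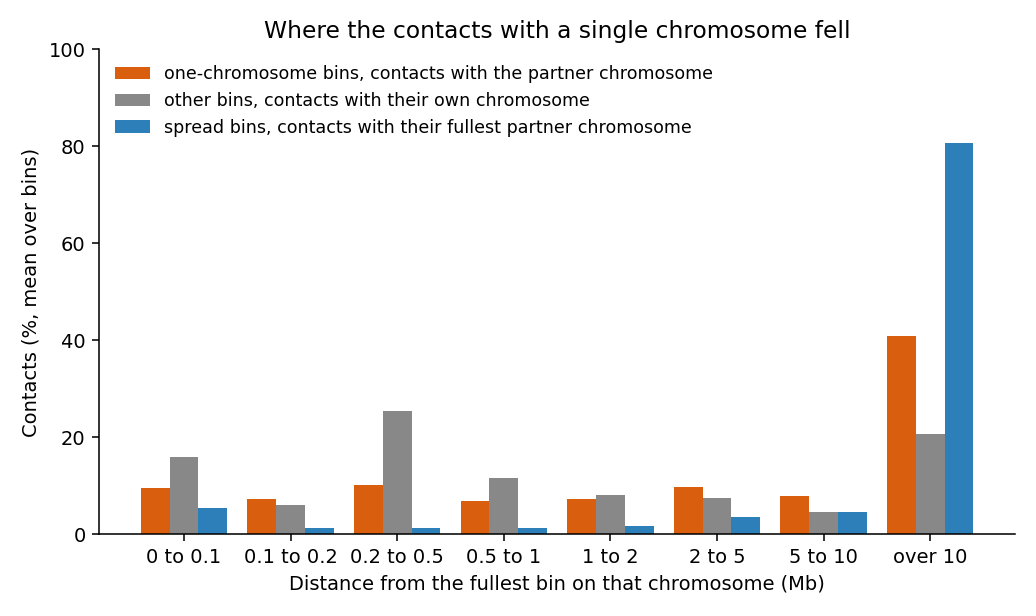
Bars give the mean percentage of contacts with 1 chromosome (y axis) by distance from the fullest bin on that chromosome (x axis, Mb) for the 151 bins with at least 50% of their trans contacts on 1 chromosome, for the cis contacts of every 20th other bin and for the 782 spread bins. In the spread bins 80.6% of the contacts lie more than 10 Mb from the fullest bin, against 41.0% in the 151 bins and 20.7% of cis contacts.

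The largest group among the 151 was 24 bins of chromosome 3 whose partner was chromosome 4. They were all the ranked bins of the stretch chr3:16700001-20700000, in which the other 100 kb bins had total contacts outside the range that was ranked. Their shares ran from 56.5 to 79.2%, and 63.0 to 77.6% of their trans contacts fell on chromosome 4, where 6.61% would fall if partner chromosomes shared the contacts by their trans totals. The fullest partner bin lay on chromosome 4 in 16 of the 24 and was chr4:98500001-98600000 in 15. Libraries of Lenti-GFP had a mean share over the 24 bins of 61.8 and 61.4%, those of Lenti-AS 62.7 and 62.7%. The stretch therefore stood apart to a similar degree in all 4 libraries. No other chromosome held more than 5 of the 151 bins with the same partner chromosome.

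The bins were unevenly distributed over the chromosomes. Chromosome 20 held 163 of them, 31.3% of its ranked bins, of which 160 were spread. Chromosome 12 held 102 (23.7%), with 88 spread, and chromosome 19 held 89 (15.3%), with 60 spread. These 3 chromosomes held 6.47% of all ranked bins, 39.4% of the spread bins and 11.4% of the concentrated bins. On chromosomes 1, 2, 4 and 5, which are among the longest, 1.36 to 1.74% of the bins were taken, and those 4 held 34.1% of all ranked bins, 4.35% of the spread and 22.96% of the concentrated bins. Chromosome 3, also among the longest, stood higher, at 5.49% with 54 spread bins. The spread bins were thus gathered on the 3 shortest chromosomes and were few on most of the longest.

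Across the 20 chromosomes, length and the median trans share of all ranked bins had Pearson's r = -0.87 and Spearman's rho = -0.93. The correlation of length with the percentage of spread bins was rho = -0.75, and with that of concentrated bins rho = -0.11. These are descriptions over chromosomes that share the same libraries. The medians in the shortest chromosomes, 12 and 20, were 27.4 and 27.6%, close to the threshold, against 16.4 and 14.9% on the longest, 1 and 2. When bins were ranked within each chromosome instead, 93.3% of the concentrated bins and 54.5% of the spread bins were taken again. Chromosomes 3, 11 and 12 carry the ribosomal RNA gene clusters of the rat, around which nucleoli form. They did not share a level, with 5.49% of the bins of chromosome 3, 3.34% of those of chromosome 11 and 23.7% of those of chromosome 12 among the 1187.

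**Figure D3:**
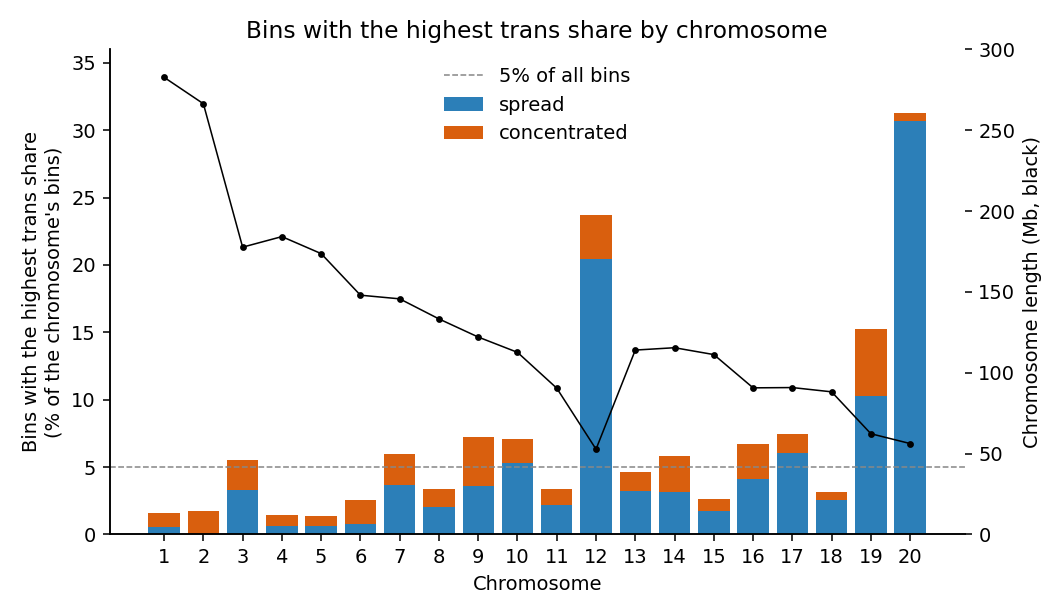
Stacked bars give the percentage of each chromosome's ranked bins that were among the 1187 (left axis), split by kind, and the black points give chromosome length (right axis, Mb). The dashed line is 5%. Chromosomes 20, 12 and 19 stand at 31.3, 23.7 and 15.3%, almost all of it spread on chromosome 20.

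The bins lay near chromosome ends more often than the other bins did. Of the 1187, 293 (24.7%) were within 5 Mb of an end, against 6.24% of the other bins. The percentage was 25.7% in the spread kind and 22.7% in the concentrated kind. Of the ranked bins in the last 1 Mb, 36.5% were among the 1187, and this fell with each step away from the end to 1.31% beyond 40 Mb. The median trans share of all ranked bins fell over the same steps from 27.3 to 16.8%. On 19 of the 20 chromosomes a larger percentage of bins was taken within 5 Mb of an end than elsewhere, chromosome 6 being the exception with 1.03% against 2.69%. Of the chromosomes with the most of these bins, chromosome 20 had 45.1% against 28.7%, chromosome 12 had 32.1% against 21.9%, and chromosome 19 had 15.6% against 15.2%. Of the 816 bins nearer to the start of their chromosome's sequence 27.6% were within 5 Mb of it, and of the 371 nearer to its end 18.3% were.

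**Figure D4:**
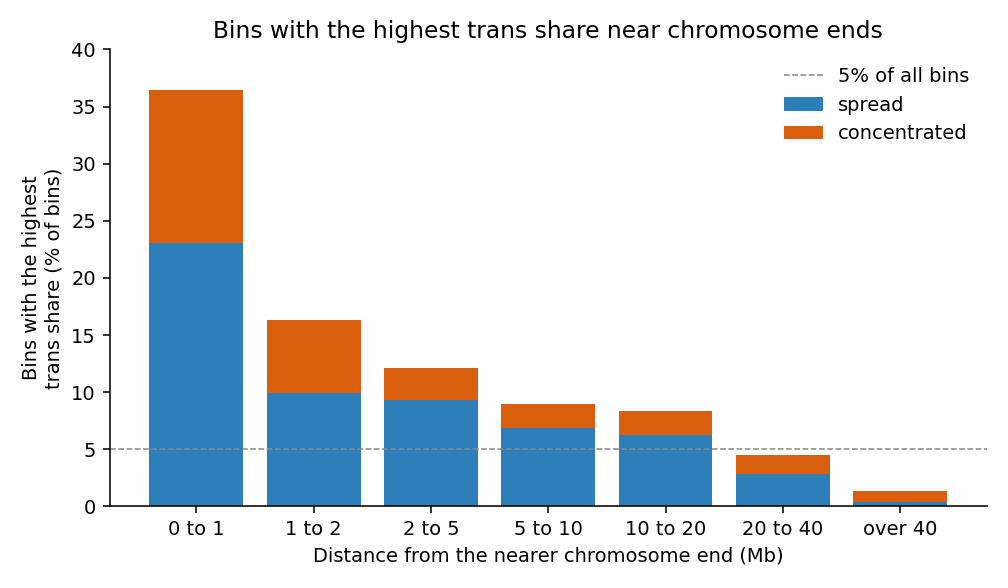
Bars give the percentage of ranked bins that were among the 1187 (y axis) by distance from the nearer chromosome end (x axis, Mb), split by kind, with the dashed line at 5%. The percentage falls from 36.5% in the last 1 Mb to 1.31% beyond 40 Mb, and both kinds take part in the fall.

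Neighbouring bins tended to be chosen together. Of the 1187, 66.6% lay beside another, while 5.00% of all ranked bins were chosen. They formed 654 runs, of which 396 were single bins and 36 were runs of 5 or more with 244 bins in all. Neighbours share contacts that span both, so a run is not a set of separate measurements. The longest run was chr9:7800001-9300000, with 15 bins, of which 13 were concentrated, and a mean share of 48.9%. In its libraries the mean stood at 48.5 and 48.7% in Lenti-GFP and at 49.2 and 49.4% in Lenti-AS. The groups did not overlap there, and the bins at large differed in the same direction.

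The next runs were shorter and of both kinds. The run chr12:18600001-19700000 had 11 bins with a mean share of 40.2%, 3 of them concentrated. Chromosome 16 held both chr16:19500001-20600000, with 11 bins and a mean of 34.4%, and chr16:20700001-21700000, with 10 bins and a mean of 34.96%. A single bin parted them. The run chr6:18200001-19200000 had 10 bins with a mean of 36.9%, 7 of them concentrated. The runs on chromosome 16 were almost wholly spread, with 1 and 2 concentrated bins.

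Contacts between the 1187 bins were compared with the number their trans totals would give, so that a bin with many trans contacts does not raise the ratio by that alone. Observed over expected contacts between bins on different chromosomes were 1.98 and 2.01 with Lenti-GFP and 2.06 and 2.03 with Lenti-AS. All libraries thus showed about the same excess. For all libraries together the ratio was 2.02, and that of the 1187 with the other bins was 0.893. Against the product of total contacts, cis included, the ratio was 8.61, which the choice of bins by trans share raises. The ratio differed between the kinds, which were themselves defined by how far trans contacts gathered in these matrices, so that the difference in part restates the definition. The ratio of concentrated bins with one another was 5.43, that of spread bins with one another was 1.22, and that of spread with concentrated bins was 0.858. With the pairs of bins of 4 or more contacts left out, which were 0.0800% of the pairs and 5.50% of the trans contacts, the ratio fell to 1.14 for all 1187 bins and to 1.18 for the spread ones.

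Spread bins did not stand alone in contacting one another. When the ranked bins without concentration were put into 20 classes by trans share, the class with the highest shares had a ratio of 1.21 with itself. The class with the lowest shares had 1.56 with itself and 0.768 with the highest. Like shares thus met like shares at both ends of the range. Among the 190 pairs of chromosomes the ratio between bins of the 1187 had a median of 1.08, and it was above 1 in 106. The 5 highest were 12.7 for chromosomes 1 and 19, 12.6 for 2 and 9, 12.5 for 14 and 18, 9.11 for 1 and 2, and 8.48 for 1 and 6. In these 5 the ratio between the spread bins alone ran from 0 to 1.52. It rested on few contacts, 290 between chromosomes 14 and 18, 155 between 1 and 19, 45 between 1 and 6, 6 between 2 and 9 and 0 between 1 and 2, where chromosome 2 had 1 spread bin.

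Chromosome segments fall into an active A and an inactive B compartment, which the first eigenvector of a contact map separates by its sign. The sign of an eigenvector is arbitrary, and without genes or base composition of this build it was set on each chromosome so that the eigenvector rose with the trans share, the measure that chose the bins. By this sign 559 of the 1187 bins (47.1%) were positive, against 46.3% of the other bins. The relation that set the sign was weak, with an absolute correlation between 0.00462 and 0.232 over the chromosomes. An eigenvector of the trans contacts of the whole genome, which has 1 sign for all chromosomes, ran opposite to it on chromosomes 10, 12, 13, 17, 19 and 20 (r from -0.98 to -0.92) and the same way on the other 14 (r from 0.90 to 0.97). Within every chromosome the eigenvector of each library correlated with that of Lenti-GFP replicate 1 with r of at least 0.986, so that the sign and not the pattern was uncertain.

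The sign of the whole-genome eigenvector was set so that it rose with the trans share over the other bins (r = 0.19). By this eigenvector 422 of the 1187 bins (35.6%) were positive, against 46.4% of the other bins. The kinds differed. Of the concentrated bins 39 (9.63%) were positive, and of the spread bins 383 (49.0%). Which of its sides is the active one was not determined. Among the ranked bins without concentration, the percentage of positive bins rose from 32.2% in the lowest of 10 equal classes by trans share to 59.0% in class 9 and was 55.9% in class 10. The choice of sign fixed the direction of this trend, so the rise itself is no result. The spread bins were mixed on each of the chromosomes that held most of them, with 51.9% positive on chromosome 20 among 53.6% of all its ranked bins, 62.5% among 68.6% on chromosome 12 and 42 of 60 among 53.5% on chromosome 19. On chromosome 3 they stood at 46.3% among 49.0%. On others they departed from all bins of the chromosome, in both directions. They stood higher on chromosomes 6, 11 and 14, at 63.6, 61.1 and 62.5% among 42.6, 33.3 and 40.9%, and lower on chromosome 10, at 41.1% among 64.3%. On chromosome 16, 32 of 34 spread bins (94.1%) were positive, among 34.9% of all its ranked bins. On chromosome 17, 10 of 50 (20.0%) were positive among 62.9%, on chromosome 8, 4 of 25 among 55.5%, on chromosome 13, 6 of 34 (17.6%) among 39.4%, and on chromosome 1, 2 of 13 (15.4%) among 48.6%. High trans share with spread contacts was therefore found on both sides of the eigenvector.

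Averaged over the 1187 bins, the trans share was 41.0 and 41.3% with Lenti-GFP, against 42.1 and 42.0% with Lenti-AS. Both Lenti-AS values lay above both Lenti-GFP values, by 0.835 percentage points between the means of 41.2 ± 0.202 and 42.0 ± 0.0680% (SD, n = 2 each; exact permutation test, two-sided, p = 0.333, the smallest that 2 against 2 libraries allow). The other bins had means of 18.89 and 19.02% with Lenti-GFP and of 19.73 and 19.58% with Lenti-AS, a difference of 0.698 points in the same direction. Relative to the other bins, the share of the 1187 was 2.17 times theirs in both Lenti-GFP libraries and 2.13 and 2.14 times in the Lenti-AS libraries (exact permutation p = 0.333). This order rested on averaging over bins. With the contacts of all bins summed first, the share of the 1187 was higher in Lenti-AS by 1.23 points and that of the other bins by 0.604 points, and the ratios were 2.23 and 2.25 in Lenti-GFP and 2.23 and 2.24 in Lenti-AS, which overlapped (exact permutation p = 1). With contacts inside the bin counted in the denominator, the mean shares were higher in Lenti-AS by 0.489 points in the 1187 and by 0.455 points in the others. Of the 1187 bins 71.5% had a higher mean share in Lenti-AS, and of the others 75.3%. Spread bins were higher in Lenti-AS by 0.951 points and concentrated bins by 0.611 points (exact permutation p = 0.333 for each). The ratio of contacts between the 1187 bins differed by 0.0477 between the groups (exact permutation p = 0.333), and those between spread and between concentrated bins overlapped between the groups (p = 0.667 for each).

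Single bins were compared with edgeR's quasi-likelihood test on trans counts, relative to the overall trans share of each library, with Benjamini-Hochberg adjustment over all 23724 bins. The spread between libraries that edgeR estimated for all bins together (common dispersion) was 9.77e-05 with all libraries and with any 1 left out. These p-values thus rest largely on counting error and a spread pooled over bins, and less on the spread of a bin's own libraries. At an adjusted p below 0.05, 37 of the 1187 bins (3.12%) were called, beside 3.49% of all bins tested. Of these, 6 (0.505%) were higher in Lenti-AS, beside 2.05% of all bins, and 31 (2.61%) were lower, beside 1.43%. The share of bins called was thus near that over all bins. More were lower than higher, by a margin that depended on the libraries and the scale. Without Lenti-GFP replicate 1 it was 2 higher and 9 lower, without Lenti-GFP replicate 2 8 and 17, without Lenti-AS replicate 1 3 and 5, and without Lenti-AS replicate 2 1 and 11, among 112 to 474 calls over all bins. On the scale of log2 odds, on which high shares are not compressed, limma called 54 of the 1187 bins, 35 of them lower and 19 of them higher. Over all 23724 bins it called 1139, 450 of them lower and 689 higher. At an unadjusted p below 0.05, 71 of the 1187 were higher and 179 lower, beside 18.8% of all bins in either direction, 10.4% higher and 8.42% lower. The direction turned with the centring. Without the adjustment to each library's overall share 111 of the 1187 were called, 98 higher and 13 lower, and over all bins 2684 were higher and 127 lower. For shares near 100% the scale itself sets a value just under 0, since such a share cannot rise in step with the overall share of its library. Among the 205 bins with a mean share of at least 50%, 1 was called higher and 11 lower. Among the 982 bins with a mean share under 50%, 5 were called higher and 20 lower. The 31 bins called lower also had lower mean shares in percentage points. In some the fall was small, as in chr1:24900001-25000000, with 95.9 and 95.8% in Lenti-GFP and 95.6 and 95.6% in Lenti-AS. Some of the 31 were chosen through Lenti-GFP, as chr18:27500001-27600000, whose Lenti-AS shares of 29.0 and 28.9% lay under the threshold. The bin chr1:79100001-79200000, called higher, was the reverse, with 28.5 and 29.3% in Lenti-GFP. With bins chosen on the mean of the 4 libraries' shares, 6 were called higher and 29 lower.

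**Figure D5:**
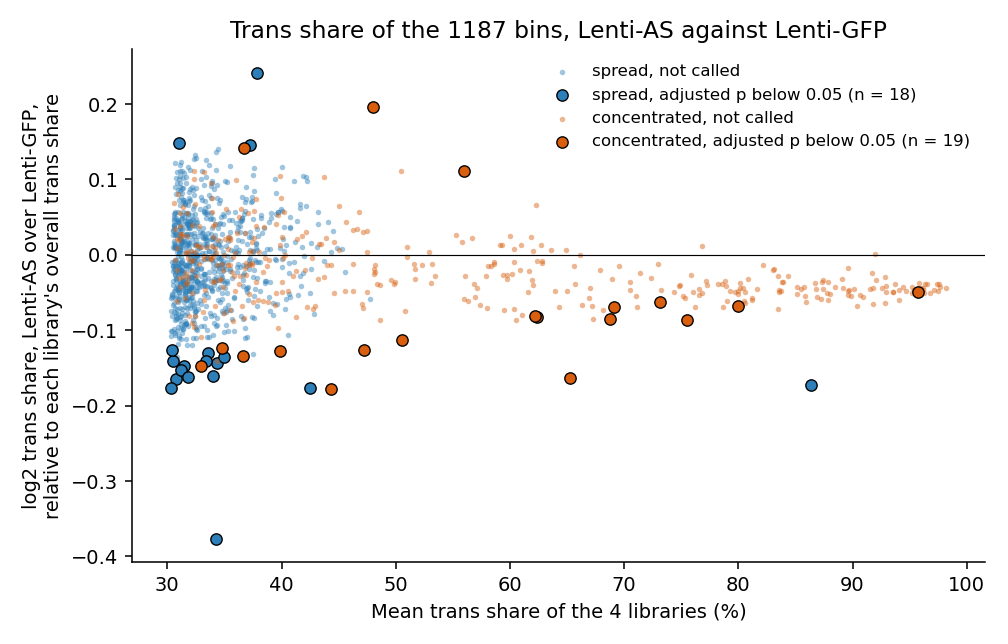
Each point is 1 of the 1187 bins, with its mean trans share in the 4 libraries (x axis, %) and the log2 fold change of its trans share in Lenti-AS over Lenti-GFP relative to each library's overall share (y axis). Outlined points are the 37 bins with an adjusted p below 0.05 in edgeR, 6 above and 31 below 0. Bins with shares toward 100% lie just under 0, where this scale places a share that has no room to rise.

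The called bin with the lowest p was chr16:45000001-45100000, a spread bin. It had trans shares of 37.3 and 39.0% with Lenti-GFP and of 31.0 and 29.7% with Lenti-AS. Its Lenti-AS mean lay just under the threshold of the choice, so that it was chosen through Lenti-GFP. Both Lenti-AS values lay below both Lenti-GFP values, at means of 38.1 ± 1.18 and 30.3 ± 0.958% (SD, n = 2 each; edgeR log2 fold change -0.38 ± 0.04 (SE), adjusted p = 5.04e-15). The spread bin chr9:119400001-119500000 went the other way, with 33.6 and 34.5% in Lenti-GFP and 41.7 and 41.5% in Lenti-AS (log2 fold change 0.24 ± 0.03 (SE), edgeR adjusted p = 6.25e-10). These 2 bins kept an adjusted p below 0.05 under every alternative in which they were tested. DESeq2 was among these, with an adjusted p of 1.85e-04 for the bin on chromosome 16 and 0.047 for that on chromosome 9. The bin on chromosome 16 was not among those tested when bins with too few well covered pieces were left out. Its call was thus not checked against coverage within the bin, while that on chromosome 9 was. DESeq2 called no other of all bins tested. On simulated data it recovered 1 of 67 changes of 0.2 on the log2 scale. That simulation drew independent noise of a set size, and edgeR called 100 bins in it and DESeq2 51, unlike the 827 and 2 here. It therefore cannot tell whether the calls that DESeq2 did not make hold.

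The other bins named by their p missed the threshold in 1 or more alternatives. The bin chr5:79600001-79700000 fell from 45.4 and 43.4% to 39.4 and 41.6% (edgeR adjusted p = 7.85e-08). This bin had SDs of 1.41 and 1.56 points between the libraries of a group, a spread that the SE of 0.02 (log2) hardly takes in. It passed in 11 of 12 alternatives, all but DESeq2, which gave the same log2 fold change of -0.18. The bin chr1:180800001-180900000, the highest of the spread kind, fell from 89.9 and 90.5% to 83.4 and 81.8% (edgeR adjusted p = 5.78e-06). In both the groups did not overlap, and DESeq2 gave an adjusted p of 0.815 for each. The bin chr1:180800001-180900000 was also not tested when bins with too few well covered pieces were left out. In a fit of trans counts with TMM library sizes, which leaves cis contacts out, the bin chr1:180800001-180900000 rose instead, by 0.37 on the log2 scale, so its cis contacts had risen by a larger factor than its trans contacts.

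Of those higher in Lenti-AS, chr5:161300001-161400000 stood at 43.7 and 44.3% in Lenti-GFP and 51.3 and 52.8% in Lenti-AS (edgeR adjusted p = 0.0015). The bin chr7:113500001-113600000 stood at 34.3 and 34.3% and at 38.0 and 40.2% (edgeR adjusted p = 0.021). Again the groups did not overlap, but the first passed in 7 of 11 alternatives and the second in 6 of 12. The first was not tested when bins with too few well covered pieces were left out. In the fits of trans counts without cis contacts the log2 fold change of chr5:161300001-161400000 was -0.01, so that its higher share came with fewer cis contacts. The 37 called bins lay on 17 chromosomes. Chromosome 2 held 6, all concentrated, and all but chr2:36500001-36600000 lay close together between chr2:100001-200000 and chr2:1200001-1300000. Chromosome 18 held 3 neighbours between chr18:27400001-27500000 and chr18:27600001-27700000, all spread. The absolute log2 fold changes of the 37 bins had a median of 0.14.

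Contacts between the 1187 bins were also compared for each pair of chromosomes. Of the 190 pairs, 6 (3.16%) were called by edgeR at an adjusted p below 0.05, 5 of them higher in Lenti-AS, and 19 (10.0%) had an unadjusted p below 0.05. The lowest p belonged to chromosomes 6 and 7, with observed over expected contacts of 4.09 and 4.16 in Lenti-GFP and 4.63 and 4.62 in Lenti-AS (log2 fold change 0.17 ± 0.04 (SE), edgeR adjusted p = 0.0213). The one lower pair was chromosomes 1 and 7, with 5.85 and 5.64 against 5.18 and 5.31 (edgeR adjusted p = 0.0337). In both the groups did not overlap, yet no pair was called when any 1 library was left out or by DESeq2.

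The compartment eigenvector, tested with limma over the 23724 bins, gave no call at an adjusted p below 0.05 in the 1187 bins or elsewhere. At an unadjusted p below 0.05, 2836 bins (12.0%) passed, 108 of them among the 1187. With 1 Lenti-AS library left out, 12 or 4 of the 1187 bins passed after adjustment, among 178 or 113 of all bins.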

How the data were processed

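The authors deposited a matrix of raw contact counts at 10 kb for each library, made with HiC-Pro (version not given in the sources used here), and ICE-balanced signal at 100 kb of each group's merged libraries, used for an alternative choice of bins only. The submitters' processing notes name rn6 (Rnor_6.0), which was taken as the build of all positions, counted from 1. The members and the lists were chosen with earlier results of these data known. Counts were summed to 100 kb, with numbered chromosomes and X as trans partners. Trans counts were tested with edgeR 4.0.16 in R 4.3.3, with group as the only term and the log of cis contacts outside the bin plus trans, centred on each library's overall trans share, as offset. Chromosome pairs with at least 40 contacts were tested likewise. Eigenvectors of distance-normalized cis contacts were tested with limma 3.58.1. Named bins were, by rule, the 10 highest, the 5 longest runs, 3 on each side of the threshold, the 3 lowest p in each direction and the 5 highest chromosome pairs. Other bins named were chosen after their values were seen. Tested on simulated data with known changes, edgeR and DESeq2 1.42.0 recovered most bins given the largest change and none given the smallest, and of those in between edgeR recovered a good part and DESeq2 hardly any. Genes, sequences and base composition were not used here, since no annotation of this build was used.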

Additional observations from a re-analysis of the deposited data

How the results depend on the processing

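With 1 library left out, where 2 libraries are set against 1 that is assumed to vary like the others and fewer degrees of freedom remain, 8 to 25 of the 1187 bins were called, the fewest without Lenti-AS replicate 1 (8), Lenti-GFP replicate 1 (11) or Lenti-AS replicate 2 (12), no chromosome pair was (0 to 0), and 0 to 12 bins had a called eigenvector, against 37, 6 and 0 with all. Over all bins tested, 112 to 474 trans shares were then called, against 827. DESeq2 called 2 of the bins, TMM library sizes 126 and DESeq2 size factors on trans counts 128, fits that leave out cis contacts, no centring 111, and the spread bins alone held 18. Over all bins these tools called 2, 1734, 1735 and 2811. With limma on the log2 odds the split was 19 higher and 35 lower, and over all bins 689 higher and 450 lower. Chromosome pairs called were 0 with DESeq2 or TMM. The cause of these differences was not tested.

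The replicate numbers of the titles did not pair the libraries (correlation of same-numbered deviations -0.03, -0.04 and -0.001 in trans share of all bins, of the 1187 and in the eigenvector). The descriptions number the same pairs 2 and 3. With the replicate block, 39 of the 1187 bins (844 of all), 0 chromosome pairs and 5 eigenvectors (198 of all) were called.

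Which bins were taken depended on the definition. Of the 1187, 804 were taken again when ranked within chromosomes, 868 within 0.7 to 1.4 times the median total, 905 with contacts inside the bin in the denominator, and 1028 and 1026 by the ICE signal of Lenti-GFP and Lenti-AS. Taking the highest 2 or 10% of bins gave 475 and 2373 bins. The share of bins beside another was 59.5% when ranked within chromosomes, 62.7 and 69.9% for the highest 2 and 10%, 57.1% within 0.7 to 1.4 times the median total, 61.9% for spread bins and 75.4% with 1 gap allowed. Within 5 Mb of an end lay 31.37 and 20.99% for the highest 2 and 10%, and 38.4 and 13.9% lay within 10 and 2 Mb. Contacts between bins over expected were 2.14 when ranked within chromosomes, 3.94 and 1.401 for the highest 2 and 10%, 1.65 within the narrower window, 1.22 for spread bins, 8.61 from total contacts, and 1.14 and 1.18 (spread) without the fullest pairs, always above 1, and 2.01 to 2.03 with 1 library left out. Positive eigenvectors made up 50.5% for the highest 10%, 50.8% in the narrower window and 56.5% of spread bins. The difference from other bins turned negative at 46.1% when ranked within chromosomes, 36% for the highest 2%, 35.6% by the trans eigenvector, 33.95% with its sign and 40.5% with a sign set by the other bins. The mean share was higher in Lenti-AS by 0.692 to 0.978 points with 1 library left out, by 1.23 with contacts summed over bins, by 0.489 with contacts inside the bin in the denominator and by 0.137 relative to the other bins.

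The log2 fold changes of chr1:180800001-180900000 and chr5:161300001-161400000 turned to 0.3715 and -0.01345 with TMM library sizes and to 0.3714 and -0.01353 with DESeq2 size factors, fits without cis contacts. The settings with spread bins alone, the sign set by other bins, the sign of the trans eigenvector given to the cis one, and the choice on mean shares were added after seeing the data.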
